A study of Saccharomyces cerevisiae with 17 samples.

Results

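Small nucleolar RNAs of Saccharomyces cerevisiae carry standard gene names that begin with SNR and a number, and 81 of the 7125 features in the deposited table have such a name. RefSeq's notes on the same names put 47 of the 81 in the box C/D class and 29 in the box H/ACA class. The other 5 (SNR6, SNR7-L, SNR7-S, SNR14 and SNR19) are the U6, U5, U4 and U1 RNAs of the spliceosome, which cuts introns out of messenger RNA, so the name covers 76 small nucleolar RNAs and 5 RNAs of another kind. A feature was kept where the libraries of at least 1 group held 3 reads or more in sum, which left 62 features: 30 box C/D, 27 box H/ACA and the 5 spliceosomal RNAs.

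The study measured RNA in strain BY4741, a laboratory strain of mating type a, and in derivatives of it, and asked how phosphate genes are controlled through Spl2, the 14-3-3 protein Bmh1 and alternative transcription. All 17 cultures grew in synthetic medium with potassium chloride and were then held for 60 min in fresh medium with 7.2 mM or 0 mM phosphate. Experiment 1 had BY4741 with 7.2 mM (3 libraries, labelled 11, 10 and 13) and 0 mM phosphate (14, 16 and 17), the spl2 deletion with 7.2 mM (7 and 18) and 0 mM (12, 19 and 20), and the bmh1 deletion with 7.2 mM (library 2). Experiment 2 had BY4741 (library B) and the rrp6 deletion (C and D), and experiment 3 had BY4741 (A-1) and the strain called ΔP, which lacks block P of the SPL2 promoter (A-3), all with 7.2 mM phosphate. The labels do not say how many clones of each deletion strain were used, and groups with 1 library have no spread of their own. Values are RPM, the authors' read numbers scaled to a fixed library total, and the reads behind them ran from 17456154 to 44667485 per library. RRP6 had 0 reads in libraries C and D and 57.8 RPM in library B. STE2, the receptor of mating type a cells, stood at 419.6 to 624 RPM in all 17 libraries, and MF(ALPHA)1, a gene of the other mating type, at 0.134 to 0.565 RPM. Other genes of that type stood higher: STE3 was at 3.56 to 11.9 RPM in all 17 libraries. MF(ALPHA)2 was at 6.07 to 8.90 RPM in experiments 1 and 2 and at 0.0672 and 0.0820 RPM in experiment 3.

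Small nucleolar RNAs work in protein particles that guide chemical changes of ribosomal RNA: box C/D RNAs direct methylation of ribose with the proteins Nop1, Nop56, Nop58 and Snu13, and box H/ACA RNAs direct the conversion of uridine to pseudouridine with Cbf5, Nhp2, Nop10 and Gar1. A few, among them U3 (the genes SNR17A and SNR17B), U14 (SNR128), SNR30 and SNR10, act in the cutting of the ribosomal RNA precursor rather than, or as well as, in its modification. Most yeast small nucleolar RNAs are made as precursors that are longer at the 3′ end and are trimmed by nucleases, among them the nuclear exosome with its subunit Rrp6, and the mature RNAs end without the long poly(A) tail of messenger RNA. The libraries were made from purified mRNA, per the labels' protocols.

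The sequences that the results turn on are given here from the RefSeq genome R64, 5′ to 3′; the build that the authors counted against is not given in the sources used here. The first pair are the last 300 bases of the U3 genes (positions 191 to 490 of SNR17A and 163 to 462 of SNR17B). Capitals mark every stretch of at least 25 bases that both copies hold, since a read that lies wholly within such a stretch cannot be assigned to 1 copy by sequence.
SNR17A (chrXV:780297-780596, plus strand): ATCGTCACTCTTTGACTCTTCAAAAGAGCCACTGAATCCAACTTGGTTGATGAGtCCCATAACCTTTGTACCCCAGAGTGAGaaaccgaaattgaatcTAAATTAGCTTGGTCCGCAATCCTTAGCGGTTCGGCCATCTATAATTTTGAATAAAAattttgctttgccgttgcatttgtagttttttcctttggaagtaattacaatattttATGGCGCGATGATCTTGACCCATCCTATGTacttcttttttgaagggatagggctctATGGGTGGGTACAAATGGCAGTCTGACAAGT
SNR17B (chrXVI:281056-281355, minus strand): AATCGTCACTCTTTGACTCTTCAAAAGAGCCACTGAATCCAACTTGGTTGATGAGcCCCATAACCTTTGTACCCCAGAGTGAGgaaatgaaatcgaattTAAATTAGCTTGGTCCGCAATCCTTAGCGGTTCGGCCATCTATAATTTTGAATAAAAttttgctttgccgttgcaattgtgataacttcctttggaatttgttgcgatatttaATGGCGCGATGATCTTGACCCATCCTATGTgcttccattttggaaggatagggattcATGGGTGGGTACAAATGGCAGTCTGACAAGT
The next set are box C/D members at both ends of the comparison in experiment 3, and U14, with capitals on the box C letters TGATGA near the start and the box D letters CTGA near the end.
SNR73 (chrXIII:298307-298412, plus strand): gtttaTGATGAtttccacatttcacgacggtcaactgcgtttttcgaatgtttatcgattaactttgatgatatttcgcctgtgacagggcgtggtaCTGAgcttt
SNR190 (chrX:139761-139950, minus strand): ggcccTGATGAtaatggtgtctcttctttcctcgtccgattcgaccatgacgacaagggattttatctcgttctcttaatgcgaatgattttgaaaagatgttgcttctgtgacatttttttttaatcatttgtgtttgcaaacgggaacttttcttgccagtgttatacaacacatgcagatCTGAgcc
SNR128 (chrX:139566-139691, minus strand): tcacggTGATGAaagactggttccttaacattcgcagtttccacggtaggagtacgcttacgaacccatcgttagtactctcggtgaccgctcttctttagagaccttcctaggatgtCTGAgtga
SNR72 (chrXIII:298554-298651, plus strand): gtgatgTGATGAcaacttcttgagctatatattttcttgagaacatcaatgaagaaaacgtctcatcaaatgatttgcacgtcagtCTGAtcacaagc
SNR33 and SNR189 are box H/ACA members, the first the most abundant of its class per length and the second among those that differed most in experiment 3, with capitals on the ACA letters near the end.
SNR33 (chrIII:142364-142546, minus strand): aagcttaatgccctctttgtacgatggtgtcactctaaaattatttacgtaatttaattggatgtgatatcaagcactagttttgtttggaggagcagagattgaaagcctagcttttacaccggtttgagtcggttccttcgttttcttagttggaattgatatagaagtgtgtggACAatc
SNR189 (chrIII:178610-178798, minus strand): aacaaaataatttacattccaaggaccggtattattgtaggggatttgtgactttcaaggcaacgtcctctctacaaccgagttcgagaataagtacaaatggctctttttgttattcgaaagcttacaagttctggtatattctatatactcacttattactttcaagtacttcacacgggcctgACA
SNR3 (box H/ACA, no ACA letters in the last 10 bases of its annotated span) and SNR60 (box C/D) are shown for the features beside them that moved in the rrp6 deletion, and the capitals in SNR60 mark the 49 bases that it shares with YJL047C-A, an annotated reading frame on the same strand at chrX:349044-349178.
SNR3 (chrX:663749-663942, plus strand): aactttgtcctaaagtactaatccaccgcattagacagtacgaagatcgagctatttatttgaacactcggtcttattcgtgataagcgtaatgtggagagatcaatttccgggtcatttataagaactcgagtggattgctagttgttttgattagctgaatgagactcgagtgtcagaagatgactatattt
SNR60 (chrX:349130-349233, minus strand): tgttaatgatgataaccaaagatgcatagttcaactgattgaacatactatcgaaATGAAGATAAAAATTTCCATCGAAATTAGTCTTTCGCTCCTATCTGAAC

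The letters of the boxes followed the class. TGATGA stood in the first 20 bases of 36 of the 47 box C/D members and of 1 of the 29 box H/ACA members, against 0.919% of all windows of that length in the genome. CTGA stood in the last 20 bases of 45 box C/D and 2 box H/ACA members, against 5.86% of windows. ACA stood in the last 10 bases of 18 box H/ACA and 7 box C/D members, against 12.7% of windows. On the opposite strand of the same windows the 3 letter runs were found in 0 to 3 members of a class. The box C/D members were short, with a median of 98 bases (78 to 490), and the box H/ACA members longer, with a median of 204 bases (161 to 1004). The U3 genes had the longest annotated spans of the box C/D class, at 490 bases for SNR17A and 462 for SNR17B. All lengths here are genome spans from annotated start to end, so an intron within a gene would be counted in, and the mature RNA can be shorter. They were identical at 398 of 454 aligned positions (87.7%), and the shared stretches covered 222 bases of each.

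The features fell into those counted in all experiments and those counted in experiment 3 alone. SNR17A and SNR17B had reads in each of the 17 libraries. The other 79 were listed at 0 in all 15 libraries of experiments 1 and 2, the rrp6 deletion included, and 69 of them had reads in experiment 3. Other RNAs without a coding sequence had the same pattern: 13 of 14 ribosomal RNA features, all 6 spliceosomal RNA features (LSR1, the U2 RNA, is the sixth), the RNA of the signal recognition particle (SCR1), of RNase P (RPR1), of RNase MRP (NME1) and of telomerase (TLC1) were listed at 0 in experiments 1 and 2 and had reads in experiment 3, whereas 22 of 5988 protein-coding features were listed at 0 there. TLC1 stood at 156.0 RPM in library A-1 and at 0 in those 15 libraries. RDN37-1 and RDN37-2, copies of the ribosomal RNA precursor that are not among the 14, did not share the pattern. They had reads in every library, as did the mitochondrial ribosomal RNA 21S_RRNA. Why the 79 features are listed at 0 in experiments 1 and 2 is not given in the sources used here, and a value of 0 in those libraries is therefore no measurement of absence; for those 79 features the rrp6 deletion could not be compared with BY4741.

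Of the 81 features, 10 were at 0 in all 17 libraries. They include all 8 members that lie in introns of other genes: SNR18 in EFB1, SNR24 in ASC1, SNR38 in TEF4, SNR39 in RPL7A, SNR44 in RPS22B, SNR54 in IMD4, SNR59 in RPL7B and SNR191 in NOG2. SNR53 and SNR78, both from clusters cut out of 1 precursor, are the other 2. A further 9 features (SNR52, SNR56, SNR58, SNR66, SNR67, SNR71, SNR74, SNR75 and SNR79, all box C/D) had 1 or 2 reads in the libraries that held any and were not kept. SNR52, whose gene is known as the source of a promoter for guide RNAs, had 1 read in library A-1 and 0 in A-3.

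In experiments 1 and 2 the U3 genes stood apart in the rrp6 deletion. SNR17A was at 3.51 RPM (105 reads) in BY4741 and at 166.5 and 169.6 RPM (3126 and 2960 reads) in the deletion libraries C and D. SNR17B was at 2.14 RPM (64 reads) in BY4741 and at 105.7 and 108.6 RPM (1985 and 1896 reads) in the deletion. Both deletion libraries lay above the only BY4741 library of experiment 2 for both genes, an order that carries little weight with so few libraries. The deletion libraries lay close to each other, at 168 ± 2.17 RPM for SNR17A and 107 ± 2.04 RPM for SNR17B (SD, n = 2). In RNA of whole cultures, more cells that hold an RNA and more of it per cell cannot be told apart.

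Differences were tested with limma on log2(RPM + 1) over all features that reached 1 RPM in enough libraries, with a threshold of 0.05 on the adjusted p. SNR17A was 47.9-fold higher (log2 difference 5.23 ± 0.22 SE; limma with Benjamini-Hochberg adjustment, adjusted p = 9.5e-12), and its log2 difference ranked 5 among 6039 features tested. SNR17B was 50.1-fold higher (5.11 ± 0.19; adjusted p = 1.5e-12) and ranked 7. Of all features tested in this comparison 15.9% were called higher, and of the tested features with an SNR name 2 of 2 were. The 5 BY4741 libraries with 7.2 mM phosphate, taken over the 3 experiments, held SNR17A between 1.94 and 3.51 RPM (median 2.94) and SNR17B between 2.05 and 2.84 RPM (median 2.14). The BY4741 library of experiment 2 is the highest of those 5 for SNR17A and the middle one for SNR17B.

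The ratio of SNR17A to SNR17B reads was 1.64 in library B and 1.57 and 1.56 in the deletion, and because of the shared stretches the split between them depends on how reads that match both were counted, which is not given. RDN37-1, a copy of the ribosomal RNA precursor, moved with the U3 genes: it was at 401 RPM in library B and 9627 and 10812 RPM in C and D. The features of the mature RNAs (RDN18-1, RDN25-1 and RDN58-1) were listed at 0 in these libraries. Reads of precursor and of mature ribosomal RNA therefore cannot be told apart in the values of RDN37-1. The mitochondrial ribosomal RNA 21S_RRNA was at 2.77, 4.79 and 3.84 RPM in the same libraries. The part of ribosomal RNA in the difference of the U3 genes was not tested.

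**Figure D1:**
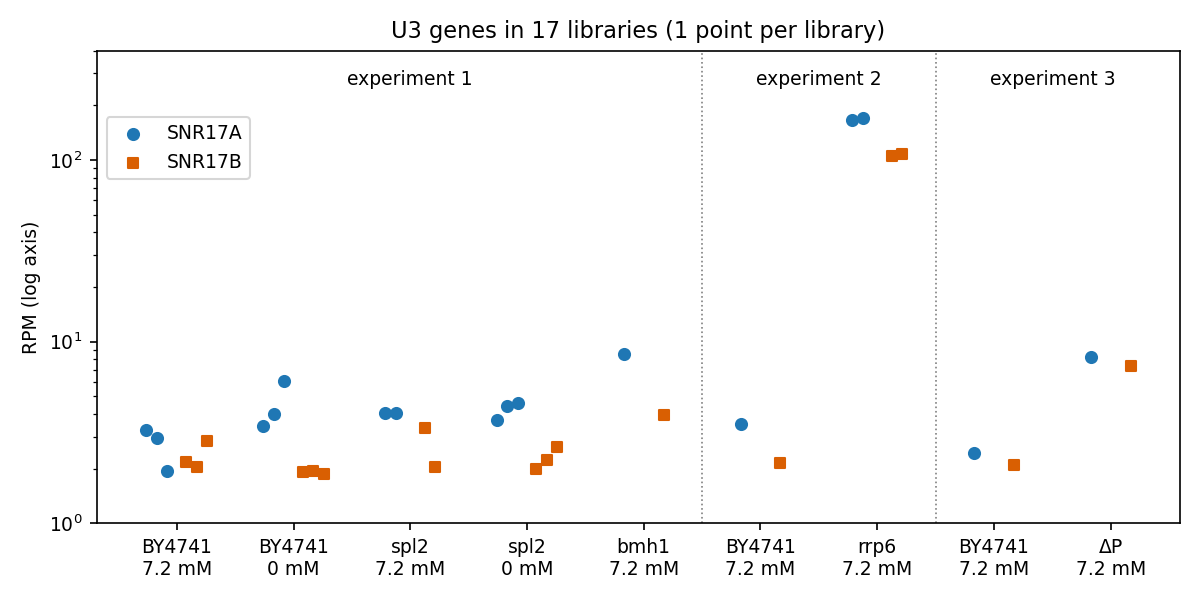
SNR17A (circles) and SNR17B (squares) in RPM on a log axis, 1 point per library, by strain and phosphate level in the 3 experiments. The rrp6 deletion libraries stand at 105.7 to 169.6 RPM, and the other 15 libraries between 1.87 and 8.52 RPM.

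Features beside the members were counted in experiments 1 and 2, and several of them moved in the rrp6 deletion. YJL047C-A, which shares 49 bases with SNR60, was at 1.04 RPM in BY4741 and 196.9 and 199.4 RPM in the deletion, while SNR60 itself was listed at 0 in all 3 libraries. The difference was 191-fold (log2 difference 6.61, adjusted p = 4.9e-15). In experiment 3, where both features had reads, SNR60 had 9 and 7 reads and YJL047C-A had 107 and 65 in A-1 and A-3. IRC13, a reading frame over the first part of SNR17A, was at 0.936 RPM in BY4741 and 0.852 and 1.32 RPM in the deletion, and was under the level at which features were tested.

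These values led to a look at every gene within 500 bases of a small nucleolar RNA gene outside introns, between annotated ends in RefSeq; that choice was made after the values of YJL047C-A were seen. The genes that lie downstream on the opposite strand, so that both point towards each other, were higher in 16 of 27 cases and lower in 1, with a median log2 difference of 0.27. The downstream genes on the same strand were higher in 4 of 21 cases and lower in 6 (median -0.11). Of the upstream genes, 5 of 14 on the same strand and 3 of 11 on the opposite strand were higher, and 0 and 2 lower. Large rises were not confined to facing genes. SPR3, 482 bases upstream of SNR48 on the same strand, was 14.0-fold higher, from 2.14 RPM in BY4741. YDR042C, 398 bases downstream of SNR47 on the same strand, was 6.60-fold higher, and ASR1, 315 bases upstream of SNR41, 4.91-fold higher. CUE5 was counted both as a gene facing SNR62 and as an upstream gene of SNR9. RPS14A, which was not called, was counted both as a gene facing SNR65 and as a downstream gene of SNR189 on the same strand. Over all 6039 features 15.9% were higher and 24.6% lower, with a median of -0.08.

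Among the facing downstream genes the largest differences were at short gaps. Of the 8 within 100 bases, 7 were higher, with a median log2 difference of 2.73, against 9 of 19 at larger gaps, with a median of 0.14. Of all 6039 features 15.9% were higher. The cut at 100 bases was not set in advance, so the split by gap only describes these same values. EFM3, a methyltransferase gene that ends 57 bases from SNR3, was at 8.12 RPM in BY4741 and 383.8 and 446.1 RPM in the deletion, a 51.1-fold difference (adjusted p = 3.3e-16). CMC4, a gene for a mitochondrial protein 61 bases from SNR11, was at 20.1 RPM against 322.4 and 338.8 RPM. LIN1, 66 bases from SNR71, was at 21.3 RPM against 340.6 and 340.8 RPM.

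GLO4, a glyoxalase gene 26 bases from SNR9, was at 17.1 RPM in BY4741 and 123.6 and 143.7 RPM in the deletion. KTR2, a mannosyltransferase gene 61 bases from SNR42, was at 35.9 RPM against 209.3 and 226.6 RPM. In each of these 5 genes the deletion libraries lay far above BY4741 and close to each other. The other 3 within 100 bases differed less. ODC2, 72 bases from SNR35, was called at 1.36-fold and RBA50, 63 bases from SNR84, at 1.30-fold. VMA9, a subunit gene of the vacuolar proton pump 86 bases from SNR43, was not called, at 200.4 RPM against 208.3 and 204.6 RPM. At larger gaps PMD1, 304 bases from SNR4, was 4.21-fold higher and POP6, 114 bases from SNR46, 3.96-fold higher. The kit was stranded, but whether strand was used in counting is not given, so reads of a facing gene and reads that run on from the small nucleolar RNA gene opposite it cannot be told apart in these values.

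**Figure D2:**
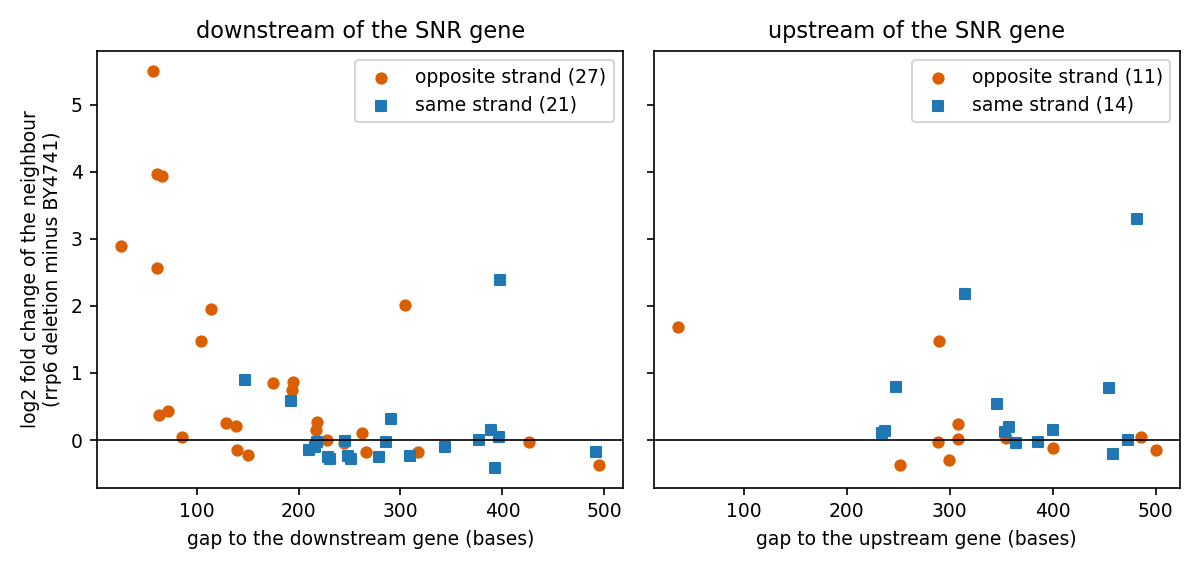
Log2 difference of a gene between the rrp6 deletion and BY4741 of experiment 2 (vertical axis) against its gap in bases to the nearest small nucleolar RNA gene (horizontal axis), for downstream and upstream genes, circles for the opposite and squares for the same strand. The 5 highest points on the left are EFM3, CMC4, LIN1, GLO4 and KTR2, all on the opposite strand with a gap of 26 to 66 bases.

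The U3 genes themselves have both kinds of neighbour. POC4, a proteasome assembly gene 129 bases from SNR17B on the opposite strand, was at 82.3 RPM in BY4741 and 101.9 and 95.1 RPM in the deletion (log2 difference 0.26, called higher). DFR1, the dihydrofolate reductase gene, which follows SNR17A on the same strand after 309 bases, was at 88.8 RPM against 73.6 and 77.3 RPM (-0.23, called lower).

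Of the mRNAs of the 8 core proteins of the particles, 0 were higher and 1 was lower in the rrp6 deletion by limma, where 15.9% of all features were higher and 24.6% lower. The 1 that fell was that of the box C/D scaffold (NOP58, 195 RPM in BY4741 and a mean of 169 RPM in the deletion), and the median log2 difference was 0.02. Of 14 genes that assemble the particles or process the RNAs, 4 were higher and 0 lower, where 15.9% of all features were higher and 24.6% lower. NRD1, part of the complex that ends transcription of small nucleolar RNA genes, rose from 52.7 RPM to 150.5 and 174.0 RPM (3.08-fold, limma adjusted p = 7.3e-09). The other 3 were RNT1, the nuclease that cuts many precursors (1.37-fold), and TAH1 and HIT1, assembly factors of box C/D particles (1.38-fold and 1.34-fold). NAB3 and SEN1, the partners of Nrd1, were at ratios of 1.0 and 0.958 and were not called.

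Of the 8 genes whose introns hold members, 3 were higher in the rrp6 deletion and 1 was lower, beside the same 15.9% and 24.6% over all features. RPL7B, the host of SNR59, rose from 347 RPM to 676.5 and 680.6 RPM (1.96-fold), and IMD4 and NOG2 were at 1.26-fold and 1.21-fold. RPS22B, the host of SNR44, fell from 1121 RPM to a mean of 701 RPM (ratio 0.625). With TMM scaling 2 of the 8 were higher and 1 lower. The members inside these introns were at 0 in the same libraries.

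In the bmh1 deletion, which lacks 1 of the 14-3-3 genes of yeast, the U3 genes were also above BY4741. SNR17A was at 8.52 RPM in the single deletion library and at 3.27, 2.94 and 1.94 RPM in BY4741 (2.72 ± 0.696, SD, n = 3), a log2 difference of 1.37 ± 0.23 SE (limma, adjusted p = 0.00013). SNR17B was at 3.94 RPM in the deletion and at 2.17, 2.05 and 2.84 RPM in BY4741 (2.35 ± 0.428), a log2 difference of 0.57 ± 0.21 (adjusted p = 0.024). The deletion library lay above all 3 BY4741 libraries for both genes, and how many of all features were placed so is not given here. By limma 15.2% of all features were called higher and 48.8% lower. Without BY4741 library 11 or 10 the adjusted p of SNR17B was 0.052 or 0.066. RDN37-1 was at 894 RPM in the bmh1 deletion against 166.9, 202.8 and 181.3 RPM in BY4741, and 21S_RRNA at 8.77 RPM against 0.919 to 1.08 RPM; their part in the difference was not tested.

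After 60 min without phosphate the call for SNR17A of BY4741 depended on the scaling, and SNR17B did not pass the test. SNR17A was at 3.41, 3.99 and 6.04 RPM without phosphate (4.48 ± 1.38, SD, n = 3) and at 2.72 ± 0.696 RPM with it, with no overlap, a log2 difference of 0.55 ± 0.16 SE (limma, adjusted p = 0.0080). How many of all features had no overlap is not given here. SNR17B was at 1.91, 1.93 and 1.87 RPM without phosphate (1.90 ± 0.0285) and at 2.35 ± 0.428 RPM with it, a log2 difference of -0.20 (adjusted p = 0.23). So 1 of the 2 was called higher, in a comparison in which 60.9% of all features were called higher and the median feature stood at a log2 difference of 0.21. Relative to that median SNR17A was 0.34 higher and SNR17B 0.41 lower.

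The call of SNR17A did not hold when libraries were scaled by TMM, a method that sets the bulk of features equal, which put the median feature at 0.01: its log2 difference was then 0.38, with an adjusted p of 0.082. Without library 17 the difference was 0.35 (adjusted p = 0.050) and without library 13 of BY4741 with phosphate it was 0.39 (adjusted p = 0.051). Library 17 is also the one with the most RDN37-1 of its group, at 831 RPM against 258 and 292 RPM in libraries 14 and 16, and its part was not tested.

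In the spl2 deletion the U3 genes did not pass the test between phosphate levels. SNR17A was at 3.72, 4.41 and 4.57 RPM without phosphate and 4.07 and 4.03 RPM with it (log2 difference 0.05 ± 0.18 SE, limma, adjusted p = 0.83). SNR17B was at 1.98, 2.23 and 2.62 RPM against 3.36 and 2.03 RPM (-0.16 ± 0.16, adjusted p = 0.41). The groups overlapped for both genes. So 0 of 2 were called, 0 at an unadjusted p under 0.05 and 0 by edgeR or DESeq2, where 66% of all features were called. Without library 18 SNR17B was lower without phosphate, at -0.42 (adjusted p = 0.048). The difference between the 2 strains in the response was -0.50 ± 0.24 for SNR17A (adjusted p = 0.17) and 0.04 ± 0.21 for SNR17B (adjusted p = 0.92).

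Between the spl2 deletion and BY4741, 0 of 2 were called at either phosphate level by limma, edgeR or DESeq2. With phosphate the log2 difference was 0.46 ± 0.18 for SNR17A (adjusted p = 0.27; 1 of the 2 had an unadjusted p under 0.05, at 0.023) and 0.13 ± 0.16 for SNR17B (adjusted p = 0.76), where 0.5% of all features were called. Both spl2 libraries held more SNR17A than each of the 3 BY4741 libraries, and how many of all features were placed so is not given here. Without phosphate the differences were -0.04 ± 0.16 (adjusted p = 0.90) and 0.17 ± 0.14 (adjusted p = 0.45), with 0 of 2 at an unadjusted p under 0.05, where 13.1% of all features were called.

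Experiment 3 holds 1 library per strain, so its differences have no replicate check and no test; a feature is called here where its ratio is at least 2 with at least 10 reads in the higher library, and the 95% intervals cover counting error only. It is the experiment in which most members have reads. Library A-1 held 44667485 reads and A-3 held 36569275, so that 3 reads stood for 0.0672 and 0.0820 RPM. The members together took 246.7 RPM (11021 reads) in BY4741 and 377.8 RPM (13815 reads) in ΔP. Box H/ACA members took 72.3% of these reads in BY4741 and box C/D members 26.3%. In BY4741 the 5 highest members took 61.0% of the reads, and in ΔP 51.1%.

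SNR86, the longest box H/ACA member at 1004 bases, had the most reads, at 48.0 RPM in BY4741 and 72.5 RPM in ΔP. SNR33 followed at 39.5 and 50.9 RPM, and per length it was the highest, at 216 RPM per kb in BY4741 against 47.9 RPM per kb for SNR86. The box C/D members SNR63 and SNR4 came next, SNR63 at 23.7 and 21.4 RPM and SNR4 at 22.8 and 26.4 RPM. SNR31 (box H/ACA) was at 16.5 and 21.6 RPM. Of the members that act in cutting the ribosomal RNA precursor, SNR10 was at 8.96 and 16.7 RPM, SNR30 at 8.06 and 14.3 RPM, and U14 (SNR128) at 2.89 and 4.46 RPM.

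Length went with the reads a member had. Of the 30 members outside introns with 70 to 109 bases, all of them box C/D, 11 had at least 10 reads in 1 library or more, with a median of 5 reads in BY4741. At 110 to 169 bases 8 of 9 did (median 23 reads), and at 170 to 1099 bases 33 of 34 did (median 100.5 reads). The order held per length: the median was 1.14 RPM per kb in the shortest group, 3.79 in the middle group and 7.09 in the longest in BY4741.

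**Figure D3:**
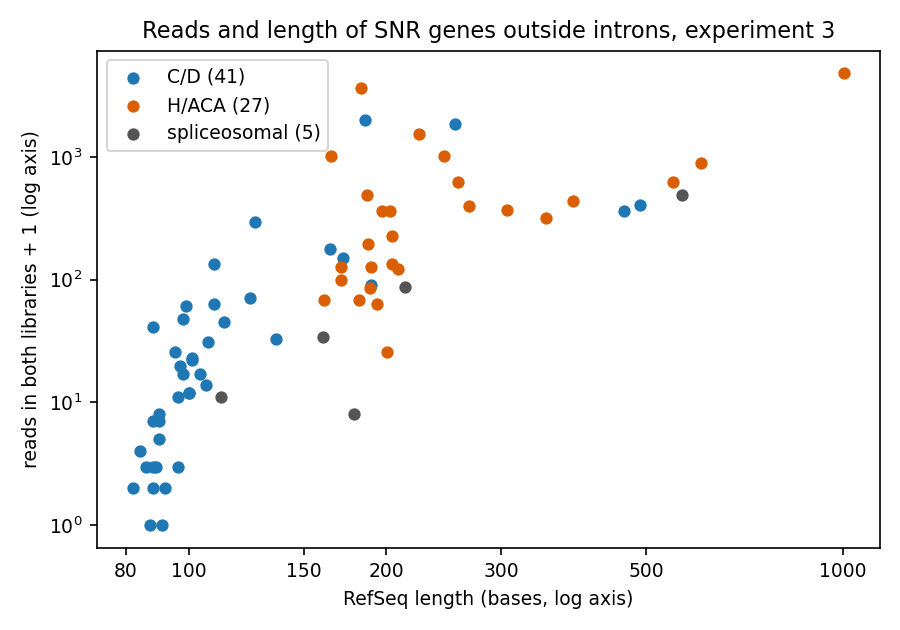
Reads in both libraries of experiment 3 plus 1 (vertical log axis) against RefSeq length (horizontal log axis) for 73 genes outside introns, coloured by class. The shortest box C/D genes have the fewest reads, and SNR86 at 1004 bases the most.

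ΔP held more reads of many members than BY4741. Of the 52 members with at least 10 reads in 1 library, 24 were at least 2-fold higher in ΔP and 2 at least 2-fold lower, where 2.54% of all 6134 features with 10 reads were higher and 0.603% lower. The median ratio of the 52 was 1.70, against 1.0 over all features, and the counting interval lay above 1 for 33 of them, below 1 for 2 and held 1 for 17. The share of all features with an interval above 1 was not computed, so the 33 have no background to be read against. The shift was in both guide classes: 10 of 22 box C/D members (median ratio 1.59) and 11 of 27 box H/ACA members (median 1.60) were higher. Protein-coding features were higher in 1.78% of cases.

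The largest ratios were in members with few reads in BY4741. SNR73, a box C/D member of the cluster that also holds SNR72, had 1 read in BY4741 and 12 in ΔP, a ratio of 14.7 with an interval of 2.17 to 627. SNR14, the U4 RNA, had 4 and 29 reads (8.86, interval 3.11 to 34.7). SNR189 had 14 and 71 reads (6.19, interval 3.46 to 11.9). SNR3 had 11 and 52 reads (5.77, interval 2.98 to 12.3), and SNR32 had 40 and 154 reads (4.70, interval 3.30 to 6.84). All 5 intervals lay above 2, and that of SNR73 spanned more than any other among the 52.

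Members with more reads were also higher. SNR17A was at 2.44 RPM (109 reads) in BY4741 and 8.20 RPM (300 reads) in ΔP, a ratio of 3.36 (interval 2.69 to 4.23). SNR17B was at 2.08 and 7.36 RPM (93 and 269 reads; 3.53, interval 2.78 to 4.52). SNR37, a box H/ACA member, had 100 and 336 reads (4.10), and SNR11 had 223 and 405 (2.22). In contrast the 5 members with the most reads had ratios between 0.90 (SNR63) and 1.51 (SNR86).

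The 2 members at least 2-fold lower in ΔP were SNR72 and SNR68, both box C/D. SNR72 had 36 and 11 reads (ratio 0.373, interval 0.171 to 0.749), and SNR68 had 23 and 9 (0.478, interval 0.195 to 1.07), so that only the interval of SNR72 lay below 1 in that pair. SNR41 followed at 0.687 (16 and 9 reads), SNR51 at 0.707 (19 and 11 reads) and SNR85 at 0.90 (57 and 42 reads), each with an interval that held 1. SNR63, with 1059 and 781 reads, was the other member whose interval lay below 1, at 0.901 (0.820 to 0.989).

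Members cut from shared precursors did not move as 1 unit. Of the 17 cluster members 12 were kept and 9 had 10 reads. Of these 9, 2 were higher and 1 lower, with a median ratio of 1.08. Of 13 box C/D members outside clusters 8 were higher and 1 lower (median 2.64). Among all 6134 features with 10 reads 2.54% were higher and 0.603% lower. SNR73 and SNR72 lie 141 bases apart on chromosome XIII, and had ratios of 14.7 and 0.373. Their neighbours in the cluster, SNR76 and SNR77, were at 1.08 (71 and 63 reads) and 1.0 (22 and 18 reads). SNR190 and U14 (SNR128), a pair on chromosome X, were at 4.56 (19 and 71 reads, interval 2.72 to 8.02) and 1.54 (129 and 163 reads, interval 1.22 to 1.96).

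**Figure D4:**
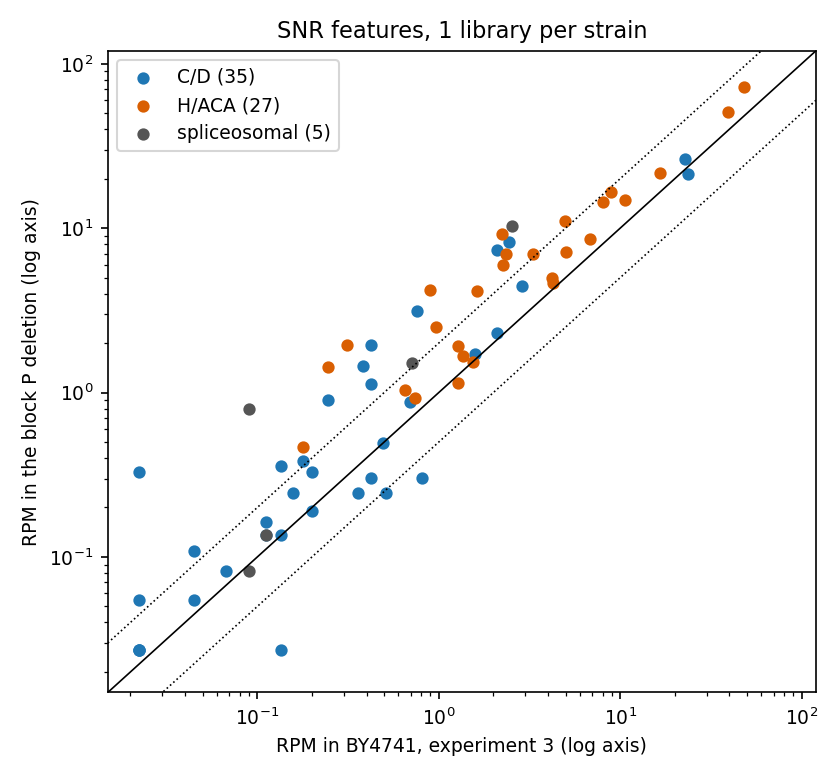
RPM in ΔP (vertical log axis) against RPM in BY4741 of experiment 3 (horizontal log axis) for the 67 features with an SNR name that had reads in both libraries, by class; the solid line marks equal values and the dotted lines a 2-fold difference. The highest members lie near the solid line, and many with lower levels lie above the upper dotted line.

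**Figure D5:**
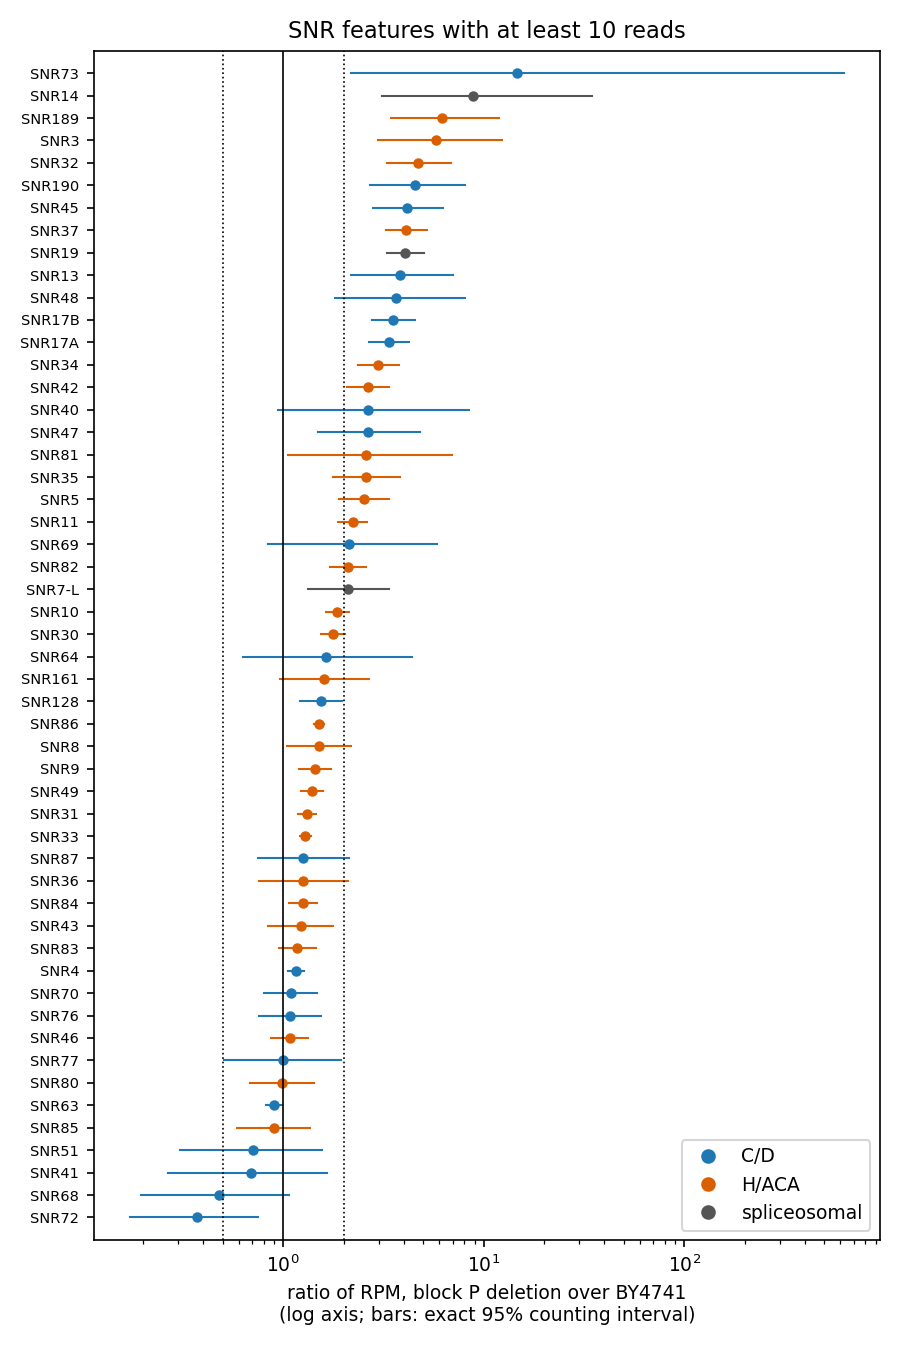
Ratio of RPM in ΔP over BY4741 (points, log axis) with its exact 95% counting interval (bars) for the 52 features with an SNR name and at least 10 reads, by class. The ratios run from 0.373 for SNR72 to 14.7 for SNR73, and 33 intervals lie above 1. The share of such intervals over all features was not computed.

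The spliceosomal RNAs ranged from 3 to 376 reads in a library. SNR19, the U1 RNA, was at 2.53 and 10.3 RPM (113 and 376 reads, ratio 4.06). SNR7-L, the long form of U5, had 32 and 55 reads (2.10), and SNR7-S, the short form nested in it, 4 and 3 reads. SNR6, the U6 RNA, had 5 reads in each library. All 3 with at least 10 reads, U4, U1 and the long U5, were at least 2-fold higher in ΔP, where 2.54% of all 6134 features with 10 reads were.

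RNAs outside the match moved with the members in experiment 3. Of 14 ribosomal RNA features 11 were at least 2-fold higher in ΔP, with a median ratio of 3.90, where 2.54% of all 6134 features with 10 reads were. RDN37-1, which is not among the 14, was at 389 and 1392 RPM (3.58), and the mitochondrial 21S_RRNA was at 0.246 and 3.17 RPM (12.9). SCR1 was at a ratio of 3.74, RPR1 at 2.25, NME1 at 1.95 and LSR1 at 1.89. TLC1, the telomerase RNA, was lower, at 156.0 and 132.7 RPM (0.851). The part of these RNAs in the difference of the members was not tested, and with 1 library per strain the strain and the library cannot be told apart.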

How the data were processed

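RNA of 17 yeast cultures was sequenced. Libraries came from mRNA with a stranded Illumina kit and PCR, per the labels' protocols. The authors deposited 1 table of RPM values (reads as a share of all reads in a library) with 7125 features. Which aligner, counter and genome build they used, and whether strand entered the counting, is not given in the sources used here. All values (100%, tolerance 0.001) were whole multiples of the value of 1 read, so reads were recovered: 17456154 to 44667485 per library. Intervals cover counting error only.

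Groups came from the sample labels; for the spl2 deletion the series text gives 3 cultures with and 2 without phosphate, the labels 2 and 3. Cultures of both phosphate levels may share a parent culture. Libraries of a group differed by more than sampling noise in every pair, with a chi-square per feature of 3.84 to 26.9 on average. The members, lists and comparisons were chosen with earlier results of these data known.

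Because the values are RPM, log2(RPM + 1) was fitted with limma 3.58.1 under R 4.3.3, its trend option set, on the 12 libraries of experiment 1 or the 15 of experiments 1 and 2 (7 and 8 residual degrees of freedom), with Benjamini-Hochberg adjustment over all tested features and a threshold of 0.05; a group with 1 library is assumed to vary like the others. Tested features had 1 RPM or more in as many libraries as the smaller group held and in at least 2. The pseudocount of 1 makes log2 differences of low features too small; ratios are of mean RPM. The fit was tested on simulated data. Alternatives were a pseudocount of 0.1, no filter, TMM scaling, edgeR 4.0.16 and DESeq2 1.42.0 on recovered reads, the compared groups alone and leaving out each library. For experiment 3 ratios have exact conditional binomial intervals (scipy 1.17.1), and a library under 3 reads was put at 3 reads for calls and medians. Members named with values in every library are the 8 with the highest mean RPM, the U3 genes, the spliceosomal RNAs, SNR30, SNR128, SNR190, SNR52 and the intronic members, and the 5 highest and 5 lowest ratios of experiment 3. SNR11, SNR37, SNR60, SNR76, SNR77 and the neighbouring genes were named after their values were seen. Sequences and positions are from RefSeq, assembly R64; 6190 features matched a RefSeq name.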

Additional observations from a re-analysis of the deposited data

How the results depend on the processing

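The U3 genes were called higher in the rrp6 deletion under every alternative run. The count of 16 facing neighbours called higher there was 14 to 16 under the alternatives, which were added after seeing the data. For BY4741 without against with phosphate, the count of 1 SNR feature called was 0 with TMM scaling, 0 with edgeR and 0 with DESeq2 (SNR17A adjusted p 0.082, 0.072 and 0.054; 0.050 and 0.051 without library 17 or 13), and 0 to 1 when each library was left out; it was 0 to 1 for the spl2 deletion between phosphate levels and 1 to 2 for the bmh1 deletion. In experiment 3, 1 member was lower at a minimum of 30 reads, in place of 2. SNR17A in the spl2 deletion between phosphate levels turned from 0.05 to -0.14 with TMM, -0.16 with edgeR and -0.16 with DESeq2. With libraries left out, SNR17B ran from -0.42 to 0.11 in that comparison and from -0.14 to 0.39 for the spl2 deletion against BY4741 with phosphate, and SNR17A from -0.18 to 0.15 without phosphate. The cause of these changes was not tested.

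Over all features, TMM, edgeR and DESeq2 called 2311, 2295 and 2188 features in place of 4068 for BY4741 between phosphate levels, with 46.9% of the calls higher under TMM in place of 90.1%. For the spl2 deletion between phosphate levels DESeq2 called 2549 in place of 3984, and the share higher was 47.5% under TMM in place of 86.7%. In the bmh1 deletion the share higher was 51.2% under TMM. Between the spl2 deletion and BY4741, DESeq2 called 111 and the compared groups alone 81 in place of 30 with phosphate, and leaving out libraries gave 16 to 65, and 228 to 914 in place of 789 without phosphate. No paired analysis was possible because the compared groups share no replicate numbers. Low read numbers of members limit experiment 3: 29 of 81 features had fewer than 10 reads in both libraries.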

Other observations

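YGL088W, an annotated reading frame that overlaps SNR10 on the same strand, was at 0.0668 RPM in BY4741 of experiment 2 and 0.692 and 0.458 RPM in the rrp6 deletion, under the level at which features were tested. In experiment 3 it had 26 reads in BY4741 and 6 in ΔP, a ratio of 0.282 (interval 0.095 to 0.700), whereas SNR10 had 400 and 610 reads (1.86). MF(ALPHA)2, the gene upstream of SNR10, was at 6.07 to 8.90 RPM in the 15 libraries of experiments 1 and 2 and at 0.0672 and 0.0820 RPM in the 2 of experiment 3.

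The lists of particle proteins, assembly factors and intron hosts gave different counts with the scaling in the phosphate comparison of BY4741. Of the 8 core proteins 0 were higher and 3 lower by limma without further scaling (0 and 7 with TMM), of the 14 factors 7 were higher and 0 lower (1 and 0), and of the 8 hosts 0 were higher and 5 lower (0 and 8). Over all features 60.9% were higher and 6.68% lower in that comparison (18.0% and 20.4% with TMM). In the spl2 deletion between phosphate levels these counts were 4 and 2, 11 and 0, and 3 and 4 (1 and 4, 5 and 1, and 1 and 4 with TMM), where 57.3% of all features were higher and 8.75% lower (21% and 23.2%). In the bmh1 deletion they were 2 and 4, 1 and 10, and 1 and 4 (4 and 3, 1 and 3, and 1 and 2 with TMM), where 15.2% of all features were higher and 48.8% lower (29.7% and 28.3%).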
